A study of Mus musculus with 8 samples.

Results

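The 10 genes described here encode proteins that neutrophils store in their granules, grouped by the granule class to which each was assigned here. The primary class held *Mpo*, *Elane*, *Prtn3* and *Ctsg*, the secondary class *Camp*, *Ltf*, *Lcn2* and *Ngp*, and the tertiary class *Mmp8* and *Mmp9*. The place of each product in its class was not tested. These members were chosen by their assigned class and with the levels of several of them in these same libraries already known. Their values and calls are therefore given as a description, with no test of the members as a set. They are 10 of the 55416 genes listed in the count files, and all 10 were among the 18560 genes that passed the filter on low counts and entered the fit.

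Neutrophils build their granules in sequence while they mature in the bone marrow. Primary (azurophil) granules form first, in promyelocytes, and hold myeloperoxidase and serine proteases, secondary (specific) granules follow in myelocytes and metamyelocytes, and tertiary (gelatinase) granules come last, in band cells. The transcripts for each class are made mainly while that granule forms, so that circulating mature neutrophils carry the stored proteins with little of the primary transcripts, and the lung, whose capillaries retain many neutrophils, takes up more of them during endotoxemia.

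Lung tissue from 8 female C57BL/6 mice (C57BL/6J in the study's methods) aged 6 to 8 weeks was profiled by RNA-seq in a model of endotoxin shock, to see how a PAD4 inhibitor changes the response of the lung. The control group (mice 1, 2 and 4) received the solvent DMSO intravenously and then saline. The LPS group (mice 1, 6 and 7) received lipopolysaccharide, a component of the bacterial outer membrane, at 35 mg/kg in saline, and the study's methods name no DMSO for these mice. The dual-treatment group (mice 2 and 5) received YW3-56, an inhibitor of the peptidylarginine deiminases, dissolved in DMSO, at 10 mg/kg shortly before the same dose of LPS, so that by the study's methods this group differs from the LPS group by DMSO as well, and those methods give 3 mice per group while 2 libraries of this group were deposited. Lungs were taken 24 h after LPS, and tissue from one side of the lung was sequenced. Libraries held 19061949, 19796242 and 20527836 counts in control mice 1, 2 and 4, 20818501, 19379911 and 19279724 in LPS mice 1, 6 and 7, and 19875939 and 20908608 in dual-treated mice 2 and 5. Levels are given as CPM, which are counts scaled to a common library size with the TMM method of edgeR, for the mice of each group in the order above. *Mpo*, *Elane* and *Ctsg* had at most 16 counts in any control or dual-treated library, which limits the precision of their levels there. A gene was called higher or lower when its Benjamini-Hochberg adjusted p-value over all tested genes was under 0.05 and its fold change over 2 in the quasi-likelihood test of edgeR, fitted on all 8 libraries.

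Several libraries stood apart in genes of other tissues and cells. Of 9 squamous epithelium genes, 8 were called higher in LPS than control lungs, and their summed level was 5.58, 10.8 and 11.2 CPM in control, 0.890, 713 and 2026 CPM in LPS and 9.26 and 23.6 CPM in dual-treated lungs. *Krt14* led the list in every control and dual-treated lung. *Krt13*, the most abundant by its mean over all 8 libraries through LPS mice 6 and 7, stood at 0.297 CPM in LPS mouse 1, and at 286 and 887 CPM in LPS mice 6 and 7. The 8 skeletal muscle genes summed to 17.5, 427 and 1120.1 CPM in LPS mice 1, 6 and 7, to at most 19.6 CPM in a control lung and to 5.45 and 7.81 CPM in the dual-treated lungs, with *Acta1* the most abundant in LPS mice 6 and 7 and *Ckm* in LPS mouse 1, and 7 of the 8 were called higher in LPS than control lungs. LPS mouse 1 was at or below the highest control lung for both lists, and LPS mice 6 and 7 were above every other lung. Without LPS mouse 6 or without LPS mouse 7, 2 of the 9 squamous genes were called higher. *Krt5* was no longer called there, at a log2 fold change of 2.93 and 2.48, and any gene that failed the count filter in these fits was not tested. In dual-treated against LPS lungs 7 squamous and 7 muscle genes were called lower, or 4 of each without dual-treated mouse 2, and 3 squamous and 4 muscle genes without mouse 5. Of the squamous genes 2 were called lower there without LPS mouse 6 or without LPS mouse 7, and here too a gene that failed the count filter was not tested. With LPS mouse 1 as the only LPS mouse, 2 squamous genes and 1 muscle gene were called higher and 2 muscle genes lower in dual-treated than LPS lungs, and no squamous gene was called lower. In that setting *Krt13* and *Acta1* were also no longer called against control, at a log2 fold change of 0.63 and 0.64, with that mouse taken to vary as the mice of the other groups did. *Krt5* and *Krt14* turned below control there, at a log2 fold change of -3.64 and -4.89, against 3.12 and 0.88 over 3 LPS mice. Red cell genes were low in the dual-treated lungs, where 5 of 6 were called lower than control, all 6 lower than LPS lungs, and their sum was 428 and 382 CPM, against 1737, 3917 and 2788 CPM in control and 3304, 1894 and 1481 CPM in LPS lungs, led by *Hbb-bs*. The part of these differences in the results was not tested, and the granule genes are also given below with LPS mouse 1 as the only LPS mouse.

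In LPS lungs the granule genes stood above control, as given for each gene below. In dual-treated lungs the members spread out, also within their classes. The primary genes *Mpo* and *Elane* and the secondary genes *Camp* and *Ltf* lay within or next to the control range, *Prtn3*, *Ctsg* and *Lcn2* lay between control and LPS on average, *Ngp* and *Mmp9* overlapped with LPS, and *Mmp8* was above LPS. In bulk tissue fewer cells of a type and less RNA per cell cannot be told apart, and this holds for every level given here.

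All 10 members were called higher in LPS than control lungs, where 17.9% of all tested genes were called higher and 21.3% lower. In dual-treated lungs 5 members (*Prtn3*, *Lcn2*, *Ngp*, *Mmp8* and *Mmp9*) were called higher than control, where 5.25% of all genes were higher and 1.9% lower. Against LPS lungs, 7 members were called lower in the dual treatment and 1, *Mmp8*, higher, where 14% of all genes were lower and 19.8% higher. Since the choice of members used these contrasts, nothing is read from these counts. The 3 comparisons share libraries and are not independent of each other. When libraries were scaled by their totals alone, the share of called genes that were higher moved from 45.6% to 32.5% in LPS against control and from 58.5% to 74.7% in dual treatment against LPS, with the median log2 fold change of all genes at -0.29, 0.04 and 0.38 in the 3 comparisons, while the same numbers of members were called in each direction.

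**Figure D1:**
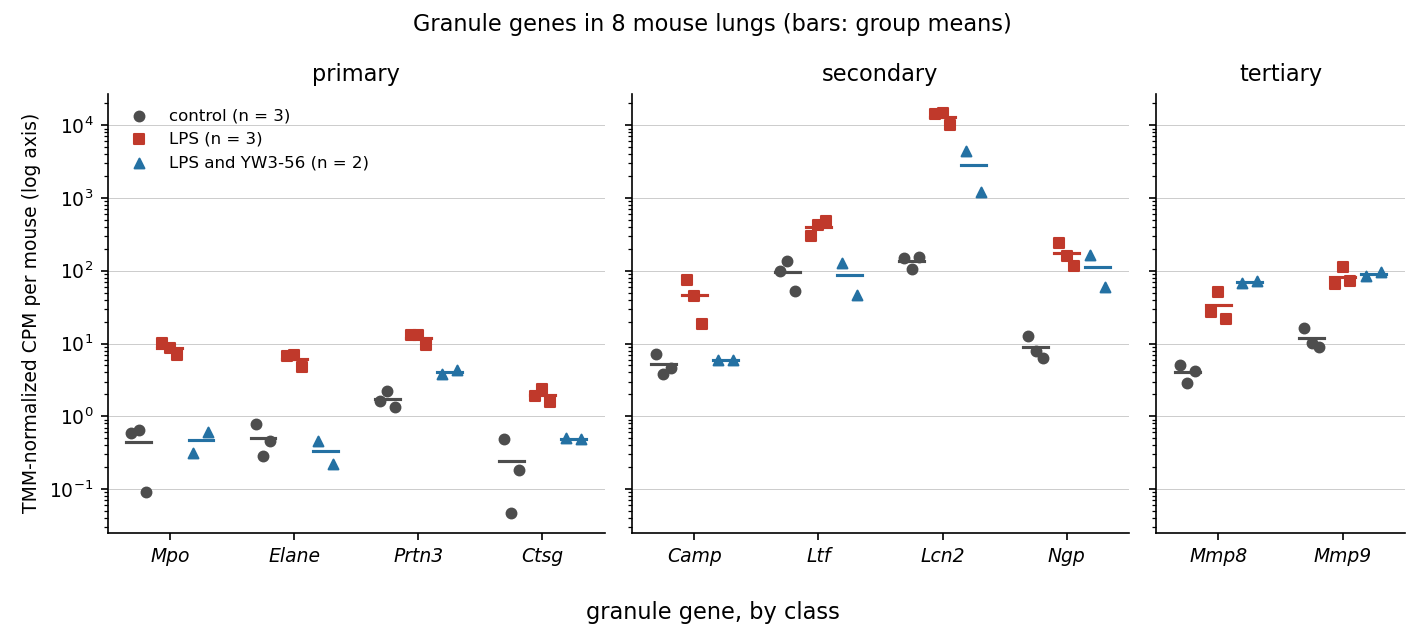
TMM-normalized CPM of each granule gene in each mouse on a log axis, by granule class, with 1 point per mouse (3 control, 3 LPS, 2 dual-treated) and a bar at each group mean. *Mmp8* is highest in the dual-treated mice.

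By group mean and per kilobase of exon, the 4 primary granule genes were lower than the other 6 members in each group. *Mpo* (ENSMUSG00000009350, chr11:87684407-87695239, plus strand), which encodes myeloperoxidase, the enzyme that makes hypochlorous acid, stood at 0.587, 0.657 and 0.0920 CPM in control, 10.3, 8.55 and 6.87 CPM in LPS and 0.318 and 0.615 CPM in dual-treated lungs. The LPS mice were all above the other 5, and the dual-treated mice lay inside the control range. The counts behind these values were 12, 14 and 2 in control, 173, 148 and 123 in LPS, and 7 and 14 in dual-treated lungs, so that the control and dual-treated levels rest on few reads. The log2 fold change (log2FC) was 4.25 for LPS against control (SE 0.50), 0.08 for dual treatment against control (SE 0.63) and -4.18 for dual treatment against LPS (SE 0.58).

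*Elane* (ENSMUSG00000020125, chr10:79722081-79724051, plus strand) encodes neutrophil elastase, a serine protease. Its level was 0.783, 0.282 and 0.460 CPM in control, 6.64, 6.99 and 4.69 CPM in LPS and 0.454 and 0.220 CPM in dual-treated lungs. The LPS mice again stood apart, and dual-treated mouse 5 was below each control mouse while mouse 2 was among them. The mean was 11.9-fold higher in LPS than control lungs and 17.9-fold lower in dual-treated than LPS lungs in the fit, with SEs of 0.41 and 0.50 on the log2 scale. Against control the dual-treated lungs had a log2FC of -0.58 (SE 0.53), which is about the size of its error. Without dual-treated mouse 2 the log2FC was -1.21 against control and -4.78 against LPS.

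*Prtn3* (ENSMUSG00000057729, chr10:79710310-79719008, plus strand), which encodes proteinase 3, a serine protease close to elastase, was the primary gene called higher than control in the dual treatment. It stood at 1.61, 2.21 and 1.33 CPM in control, 13.1, 13.2 and 9.60 CPM in LPS and 3.77 and 4.26 CPM in dual-treated lungs, with no overlap between any pair of groups. The log2FC was 2.80 (SE 0.24) for LPS against control, 1.22 (SE 0.26) for dual treatment against control and -1.58 (SE 0.26) for dual treatment against LPS. Its call against control in dual-treated lungs was lost when control mouse 1, control mouse 4 or either dual-treated mouse was left out, with log2FC of 1.18 without control mouse 1, 1.04 without control mouse 4, 1.28 without dual-treated mouse 2 and 1.10 without dual-treated mouse 5.

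*Ctsg* (ENSMUSG00000040314, chr14:56337338-56340031, minus strand) encodes cathepsin G, another serine protease of these granules, and had the lowest mean level per kb of the members in LPS lungs. It had 10, 1 and 4 counts in control, 32, 41 and 28 in LPS, and 11 and 11 in dual-treated lungs, which is 0.489, 0.0469 and 0.184 CPM in control, 1.90, 2.37 and 1.56 CPM in LPS and 0.499 and 0.483 CPM in dual-treated lungs. The LPS mice did not overlap with the others, and the dual-treated mice were close to control mouse 1 and above control mice 2 and 4. The log2FC was 3.00 (SE 0.60) for LPS against control, 1.03 (SE 0.69) for dual treatment against control and -1.97 (SE 0.63) for dual treatment against LPS. The last of these was no longer called without LPS mouse 6 (-1.81), without dual-treated mouse 2 (-2.02), without dual-treated mouse 5 (-1.97), or with LPS mouse 1 as the only LPS mouse (-1.94), while the log2FC itself stayed near its value. Without control mouse 1 the log2FC was 3.99 for LPS against control and 2.02 for dual treatment against control.

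Over the 4 primary genes the median log2FC was 3.29 for LPS against control, 0.55 for dual treatment against control and -3.07 for dual treatment against LPS, beside -0.01, 0.004 and 0.06 over all tested genes. Summed over the class, the counts were 71, 68 and 45 in control, 538, 539 and 407 in LPS, and 111 and 127 in dual-treated lungs. Per kilobase of exon, the order of mean levels in LPS lungs was *Prtn3* at 6.92, *Elane* at 6.19, *Mpo* at 2.50 and *Ctsg* at 1.88 CPM per kb.

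In the dual-treated lungs the log2FC of secondary genes against control ran from -0.15 to 4.38, a wider range than the -0.58 to 1.22 of the primary genes. *Camp* (ENSMUSG00000038357, chr9:109676442-109678685, minus strand) encodes the cathelicidin antimicrobial peptide. It stood at 7.14, 3.80 and 4.64 CPM in control, 75.1, 45.2 and 18.5 CPM in LPS and 5.99 and 5.88 CPM in dual-treated lungs. The LPS mice were above all others but spread widely, with mouse 1 highest and mouse 7 lowest, and both dual-treated mice lay inside the control range. Against control the log2FC was 3.15 in LPS (SE 0.46) and 0.19 in dual-treated lungs (SE 0.50), and dual treatment against LPS gave -2.96 (SE 0.53).

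*Ltf* (ENSMUSG00000032496, chr9:110848339-110871835, plus strand), encoding lactoferrin, an iron-binding protein that glandular epithelium also secretes, had the highest mean control level per kb of the 10 genes after *Lcn2*. Its levels were 98.5, 136 and 52.7 CPM in control, 298, 426 and 480.1 CPM in LPS and 126 and 46.8 CPM in dual-treated lungs. Each LPS mouse exceeded each other mouse, while dual-treated mouse 2 was inside the control range and mouse 5 just below it. The log2FC was 2.07 (SE 0.41) for LPS against control, the smallest among the 10 members, and -2.21 (SE 0.48) for dual treatment against LPS, which was -3.13 without dual-treated mouse 2. In dual-treated lungs against control it was -0.15 (SE 0.45), and it moved to -1.06 without dual-treated mouse 2 and to 0.37 without mouse 5.

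*Lcn2* (ENSMUSG00000026822, chr2:32274645-32278264, minus strand) encodes lipocalin 2, which binds bacterial siderophores and is made by epithelium and liver as well as by neutrophil precursors. Its mean per kb was the highest of the members in each group, and it stood at 149, 106 and 154 CPM in control, 14051, 14500.3 and 10156 CPM in LPS and 4471 and 1199 CPM in dual-treated lungs. None of the groups overlapped, and of the dual-treated pair mouse 2 was nearer to the LPS range. In the fit *Lcn2* was 94.7-fold higher in LPS than control lungs (log2FC 6.57, SE 0.50), the largest among the members, and 20.8-fold higher in dual-treated than control lungs (log2FC 4.38, SE 0.47). Between the treated groups the log2FC was -2.19 (SE 0.48), and it was -3.45 without dual-treated mouse 2 and -1.55 without mouse 5. Without dual-treated mouse 2 its log2FC in dual treatment against control was 3.11, and without mouse 5 it was 5.01.

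Lung epithelial genes were read beside *Lcn2*. Of 9 such genes, 3 were called higher in LPS than control lungs (*Epcam*, *Cdh1* and *Muc5b*), 1 was called lower in dual-treated than control lungs (*Scgb3a2*; 3 without dual-treated mouse 5), and 6 were called lower in dual-treated than LPS lungs, of which *Foxj1*, a gene of ciliated cells, lost its call with LPS mouse 1 as the only LPS mouse, without LPS mouse 7 and without dual-treated mouse 5 (log2FC -0.75, -0.85 and -0.93). The mucin gene *Muc5b* stood at 85.1, 86.7 and 81.9 CPM in control, 1187, 1035 and 2100.4 CPM in LPS and 314 and 70.4 CPM in dual-treated lungs, so that here too dual-treated mouse 2 was the higher of its pair. It was called higher in LPS than control and lower in dual-treated than LPS lungs (adjusted p = 8.19e-05 and 0.00185, edgeR), and without dual-treated mouse 5 also higher in dual-treated than control lungs, at a log2FC of 1.86. The summed level of the list, led by the club cell gene *Scgb1a1*, was 62362, 64531 and 68777 CPM in control, 91704, 74036 and 69892 CPM in LPS and 35988 and 49763 CPM in dual-treated lungs, and none of its 9 genes was at 0 in any library. The alveolar surfactant genes ran otherwise than *Scgb1a1*. *Sftpc* stood at 24216, 19567 and 24536 CPM in control, 16566, 11054 and 8322 CPM in LPS and 8528 and 17889.8 CPM in dual-treated lungs, so that every LPS lung was below every control lung. Its log2FC in LPS against control was -0.93 and that of *Sftpb* -0.91 (adjusted p = 0.0266 and 0.00688, edgeR), under the fold needed for a call, and both were called lower without LPS mouse 1 (log2FC -1.23 and -1.14) and without control mouse 2 (log2FC -1.03 and -1.01). The part of epithelial cells in the level of *Lcn2* was not tested.

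*Ngp* (ENSMUSG00000032484, chr9:110248815-110252086, plus strand) encodes the neutrophilic granule protein, a relative of the cathelicidins. Its levels of 12.5, 7.88 and 6.35 CPM in control, 243, 158 and 118 CPM in LPS and 166 and 60.1 CPM in dual-treated lungs placed dual-treated mouse 2 within the LPS range and mouse 5 between the control and LPS mice. The log2FC was 4.28 (SE 0.45) for LPS against control, 3.66 (SE 0.46) for dual treatment against control and -0.62 (SE 0.43) for dual treatment against LPS. Without dual-treated mouse 2 the value against control was 2.73. Of the alternatives tried, *Ngp* was called lower in dual-treated than LPS lungs in 1, without dual-treated mouse 2, at a log2FC of -1.54. *Camp* and *Ngp* thus parted within their class, and the ratio of *Ngp* to *Camp*, both in CPM per kb, was 1.12, 1.32 and 0.871 in control, 2.07, 2.23 and 4.05 in LPS, and 17.6 and 6.52 in dual-treated lungs.

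Over the 4 secondary genes the median log2FC was 3.72 for LPS against control, 1.93 for dual treatment against control and -2.20 for dual treatment against LPS. Per kilobase of exon, the mean levels in LPS lungs were 4919 for *Lcn2*, 126 for *Ngp*, 113 for *Ltf* and 53.0 CPM per kb for *Camp*. In dual-treated lungs they were 1081, 82.5, 24.3 and 6.80 CPM per kb for the same genes.

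Both tertiary granule genes were inside or above the LPS range in the dual-treated lungs. *Mmp8* (ENSMUSG00000005800, chr9:7558457-7568487, plus strand), encoding neutrophil collagenase, stood at 5.04, 2.86 and 4.14 CPM in control, 26.9, 51.7 and 21.7 CPM in LPS and 68.6 and 73.2 CPM in dual-treated lungs. The groups did not overlap, and the dual-treated mice were the highest of all 8. The log2FC was 3.06 (SE 0.33) for LPS against control, 4.14 (SE 0.36) for dual treatment against control and 1.08 (SE 0.32) for dual treatment against LPS. The last value is close to the fold criterion, and the call was lost without 1 of 4 mice, at 0.94 without LPS mouse 1, 0.84 without LPS mouse 7, 1.10 without dual-treated mouse 2 and 1.01 without mouse 5.

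*Mmp9* (ENSMUSG00000017737, chr2:164780439-164797771, plus strand) encodes gelatinase B, the enzyme that gives gelatinase granules their name and that macrophages also make. Its levels were 16.2, 10 and 9.06 CPM in control, 65.0, 111 and 72.3 CPM in LPS and 85.0 and 96.5 CPM in dual-treated lungs. Both treated groups were above control, and the dual-treated mice lay inside the LPS range. Against control the log2FC was 2.82 in LPS (SE 0.26) and 2.95 in dual-treated lungs (SE 0.28), and between the treated groups it was 0.13 (SE 0.26). The median of both genes was 2.94 for LPS against control, 3.55 for dual treatment against control and 0.61 for dual treatment against LPS.

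**Figure D2:**
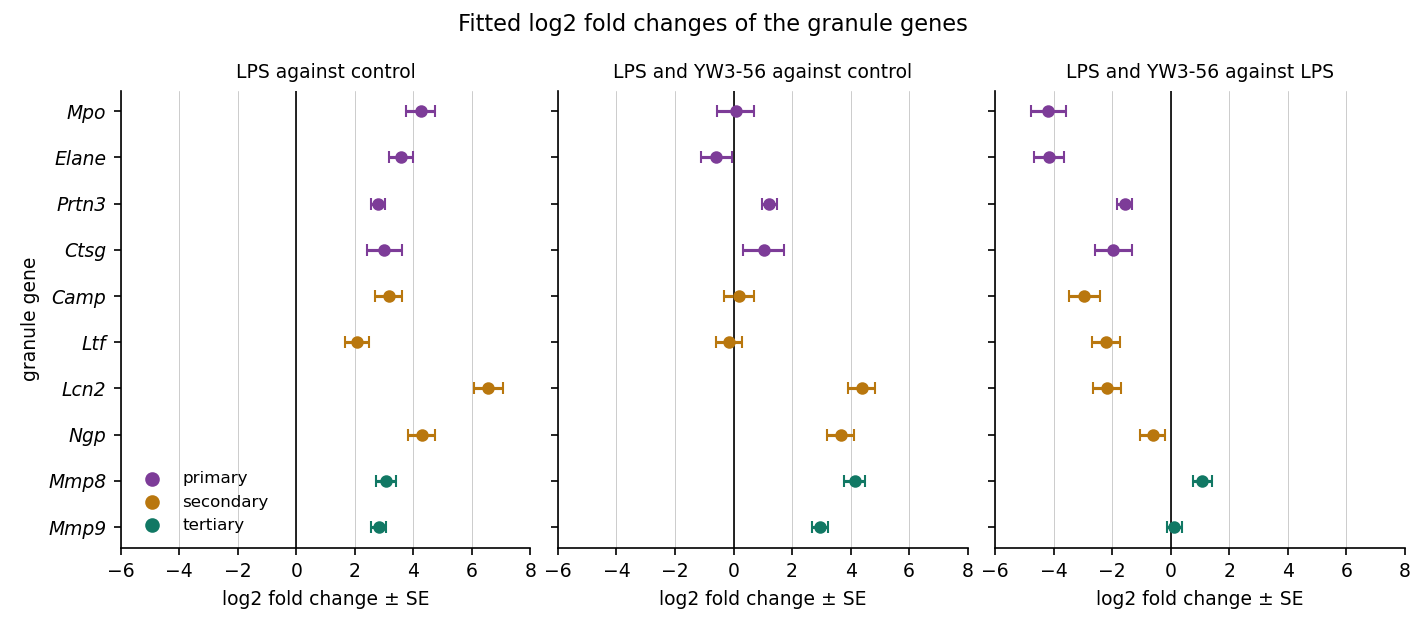
Fitted log2 fold change of each granule gene with its standard error, in LPS against control (left), LPS and YW3-56 against control (middle) and LPS and YW3-56 against LPS (right), coloured by granule class. In the right panel *Mpo* is at -4.18 and *Mmp8* at 1.08.

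LPS mouse 1, which held few squamous and muscle transcripts, was also taken as the only LPS mouse. In LPS against control the log2FC was then 4.52 for *Mpo*, 3.86 for *Camp*, 6.69 for *Lcn2* and 2.75 for *Mmp8*. In dual treatment against LPS, *Ctsg* was no longer called, at a log2FC of -1.94. The log2FC there was -4.45 for *Mpo*, -4.29 for *Elane*, -3.67 for *Camp*, -1.11 for *Ngp*, 1.39 for *Mmp8* and 0.47 for *Mmp9*. Each member was above control in LPS mouse 1 alone, with a log2FC from 1.64 for *Ltf* to 6.69 for *Lcn2*. *Camp* and *Ngp* (log2FC 4.78) were further from control than over 3 mice. *Ltf*, *Mmp8* and *Mmp9* (log2FC 2.47) were nearer to it, and the other members moved less.

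The classes can be set side by side within each mouse. The geometric mean level of the primary genes, in CPM per kb, was 0.495, 0.237 and 0.204 in control, 4.09, 4.19 and 2.99 in LPS, and 0.460 and 0.463 in dual-treated lungs. For the tertiary genes it was 3.01, 1.79 and 2.04, then 14.0, 25.3 and 13.2, then 25.5 and 28.0 CPM per kb. The ratio of tertiary to primary levels was 6.09, 7.54 and 10 in control and 3.41, 6.04 and 4.42 in LPS lungs. Each LPS mouse was below each control mouse, but LPS mouse 6 at 6.04 was very close to control mouse 1 at 6.09. The primary level in control lungs rests on few reads, so this order is uncertain. In dual-treated lungs the ratio was 55.4 and 60.6, above the other 6 mice. The ratio of secondary to primary levels was 183 and 78.9 in dual-treated lungs, against a highest value of 70.3 in LPS and 59.4 in control lungs. These ratios do not change with the scaling of a library, since both classes are read from the same library.

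**Figure D3:**
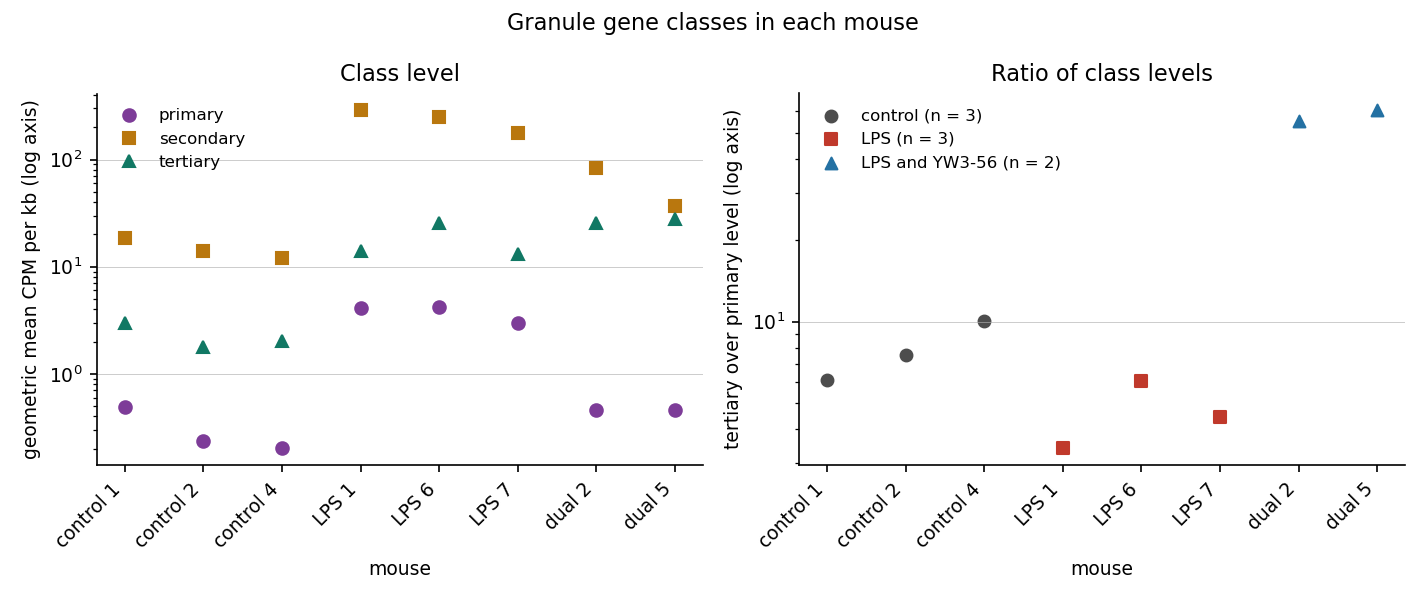
Left, geometric mean CPM per kb of the primary (4 genes), secondary (4 genes) and tertiary (2 genes) classes in each of the 8 mice on a log axis, and right, the ratio of the tertiary to the primary level in each mouse on a log axis. The dual-treated mice are at 55.4 and 60.6, above the other 6.

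Markers of mature neutrophils, 9 genes in all, were read beside the members. Their summed level, led by *S100a9*, was 281, 174 and 179.8 CPM in control, 2601, 3413 and 2224 CPM in LPS and 1791 and 2477 CPM in dual-treated lungs, and none was at 0 in any library. In LPS against control 7 of the 9 were called higher, and in dual treatment against control 7 of the 9. Between the treated groups 4 were called higher in the dual treatment and 3 lower, and the median log2FC was 3.01, 2.99 and -0.08 for LPS against control, dual treatment against control and dual treatment against LPS. The higher ones included the chemokine receptor gene *Cxcr2*, at 17.1, 14.0 and 9.49 CPM in LPS and 27.0 and 48.3 CPM in dual-treated lungs (adjusted p = 0.00863, edgeR), and the formyl peptide receptor gene *Fpr1*, at 13.8, 24.5 and 12.1 CPM in LPS and 51.9 and 64.9 CPM in dual-treated lungs (adjusted p = 0.000419, edgeR). The call of *Cxcr2* was lost without dual-treated mouse 5 (log2FC 0.97) and with LPS mouse 1 as the only LPS mouse (log2FC 1.13). Without dual-treated mouse 5 the number called higher was 2, and with LPS mouse 1 as the only LPS mouse it was 1. Lower in the dual treatment was the surface marker gene *Ly6g*, at 0.832, 0.141 and 0.368 CPM in control, 10.1, 26.7 and 11.5 CPM in LPS and 0.908 and 3.86 CPM in dual-treated lungs (log2FC -2.75, SE 0.69, adjusted p = 0.00732 for dual treatment against LPS, edgeR), a call that was lost with LPS mouse 1 as the only LPS mouse (log2FC -2.08). Against control it was not called in dual-treated lungs (log2FC 2.42, adjusted p = 0.0622, edgeR), except without dual-treated mouse 2 (log2FC 3.08). Also among the lower ones were *Trem1*, an activating receptor gene, at 68.4, 76.7 and 61.6 CPM in LPS and 26.9 and 33.3 CPM in dual-treated lungs (adjusted p = 0.00098, edgeR), and *Mxd1*, which encodes a MYC antagonist, at 421, 416 and 329 CPM in LPS and 64.9 and 65.5 CPM in dual-treated lungs (adjusted p = 4.46e-06, edgeR).

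The class levels were also read as a percent of each of these 9 genes, all per kb. The primary percent was lower in both dual-treated mice than in each LPS mouse for 8 of the 9 genes and overlapped for 1, *Ly6g*. All 9 share the same primary level, which was itself 4.09, 4.19 and 2.99 CPM per kb in LPS and 0.460 and 0.463 in dual-treated lungs. The count of 8 therefore follows largely from that level, and nothing is read from it. The tertiary percent was higher for 5, lower for 2 (*Retnlg* and *Fpr1*) and overlapped for 2, so that it moves with the gene it is read against. Of *S100a8*, a cytosolic protein gene of neutrophils, the primary level was 1.08%, 0.874% and 0.735% in control, 0.700%, 0.488% and 0.566% in LPS and 0.0887% and 0.0641% in dual-treated lungs. Of *Ly6g* it was 57.3%, 162% and 53.3% in control, 39.1%, 15.1% and 25.0% in LPS and 48.8% and 11.5% in dual-treated lungs. The tertiary level was 6.56%, 6.59% and 7.38% of *S100a8* in control, 2.39%, 2.95% and 2.50% in LPS and 4.91% and 3.88% in dual-treated lungs, which placed the dual-treated mice between the LPS mice and the higher control mice.

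Other genes of the same granules were taken from a list. Of 7 further primary granule genes, 5 were tested, and 3 of them (*Ms4a3*, *Srgn* and *Cd63*) were called higher in LPS than control and lower in dual-treated than LPS lungs. *Srgn*, which encodes serglycin, the proteoglycan core that packs the proteases, stood at 89.2, 79.5 and 86.3 CPM in control, 684, 707 and 489 CPM in LPS and 208 and 179 CPM in dual-treated lungs (adjusted p = 9.51e-07 for LPS against control and 4.79e-05 for dual treatment against LPS, edgeR). It was also called higher in dual-treated than control lungs, as the only one of the list, and many cell types express it. *Ms4a3*, a marker of granulocyte precursors, had 3, 1 and 3 counts in control, 26, 16 and 15 in LPS, and 0 and 6 in dual-treated lungs, with a log2FC of -2.99 in dual treatment against LPS (SE 0.90, adjusted p = 0.0172, edgeR), a call that was lost without dual-treated mouse 2 (log2FC -2.06). *Lyz2*, the lysozyme gene of macrophages and neutrophils, and *Ctsc*, whose product activates the serine proteases, were not called in any comparison. *Lyz2* stood at 5495, 4477 and 3219.7 CPM in LPS and 5867 and 8130.3 CPM in dual-treated lungs, and *Ctsc* at 503, 455 and 308 CPM in LPS and 446 and 337 CPM in dual-treated lungs. *Prss57* had at most 8 counts in any library and was not tested, and *Bpi* had 0 counts in every library. The median log2FC of the 5 tested genes was 1.59 in LPS against control and -1.38 in dual treatment against LPS, beside -0.01 and 0.06 over all genes.

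Of 8 further secondary granule genes, all were tested, 7 were called higher in LPS and 6 in dual-treated than control lungs, and 3 (*Cd177*, *Hp* and *Ptx3*) were called lower in dual-treated than LPS lungs. The call of *Cybb* in LPS against control (log2FC 1.10) was lost without LPS mouse 1 or 6 and without control mouse 2 (log2FC 0.97, 0.97 and 0.96). With libraries scaled by their totals alone, 5 of the list were called higher in LPS than control. *Olfm4*, which encodes olfactomedin 4, a protein of a subset of neutrophils, had 0.196, 0.141 and 0.138 CPM in control, 4.21, 7.97 and 3.68 CPM in LPS and 7.35 and 3.86 CPM in dual-treated lungs, so that the treated groups overlapped, as they did for *Ngp*. Its log2FC between the treated groups was 0.08 (SE 0.39, adjusted p = 0.861, edgeR). *Ptx3*, the gene of pentraxin 3, had 1.22, 1.08 and 0.598 CPM in control, 127, 64.7 and 89.6 CPM in LPS and 13 and 0.746 CPM in dual-treated lungs, with a log2FC of -3.77 between the treated groups (SE 0.79, adjusted p = 0.00283, edgeR), and dual-treated mouse 5 lay in the control range. Without that mouse *Ptx3* was also called higher in dual-treated than control lungs, at a log2FC of 3.72. *Cd177*, a surface receptor gene of neutrophils, had a log2FC of 4.85 in LPS and 3.77 in dual-treated against control lungs (adjusted p = 1.62e-06 and 9.17e-05, edgeR). Its call between the treated groups was lost without dual-treated mouse 5 (log2FC -0.69), without LPS mouse 6 (log2FC -0.89) and with LPS mouse 1 as the only LPS mouse (log2FC -0.77). *Chil3* was not called in any comparison, and without dual-treated mouse 2 it was called higher in dual-treated than LPS lungs, at a log2FC of 1.08. The median log2FC of the 8 genes was 2.86, 1.96 and -0.36 for LPS against control, dual treatment against control and dual treatment against LPS.

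Of 4 further tertiary granule genes, 3 were tested, and all 3 (*Mmp25*, *Slc11a1* and *Itgam*) were called higher in both treated groups than control. *Slc11a1*, a metal transporter gene of phagocytes, stood at 8.32, 6.85 and 6.81 CPM in control, 52.7, 85.8 and 56.9 CPM in LPS and 70.2 and 78.0 CPM in dual-treated lungs (adjusted p = 1.67e-06 and 2.98e-05 against control, edgeR). *Itgam*, which encodes the integrin subunit CD11b, stood at 42.4, 73.4 and 50.5 CPM in LPS and 129.7 and 83.4 CPM in dual-treated lungs, with a log2FC of 0.94 between them (SE 0.25, adjusted p = 0.00923, edgeR), under the fold criterion. It was called higher there without LPS mouse 6 (log2FC 1.19), without dual-treated mouse 5 (log2FC 1.20) and with LPS mouse 1 as the only LPS mouse (log2FC 1.32). *Mmp25*, a membrane-bound metalloproteinase gene of neutrophils, was at 10.3, 13 and 9.27 CPM in LPS and 7.76 and 9.97 CPM in dual-treated lungs, which overlapped. *Fcnb*, a ficolin gene, had at most 11 counts in any library and was not tested. The median log2FC of the 3 genes was 3.15, 3.34 and 0.19 for LPS against control, dual treatment against control and dual treatment against LPS.

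Granule genes are controlled during maturation by a small set of transcription factors, of which 8 were read. In LPS against control lungs 6 were called higher and 1 lower, in dual treatment against control 3 were called higher, and in dual treatment against LPS 3 were called lower. *Cebpe*, the factor needed for secondary granules, had 0.930, 0.235 and 0.138 CPM in control, 2.55, 3.64 and 1.56 CPM in LPS and 2.63 and 2.59 CPM in dual-treated lungs, and was called higher in both treated groups (log2FC 2.57 and 2.59, adjusted p = 0.0041 and 0.0238, edgeR). Its call in dual treatment against control was lost without control mouse 2 or 4 (log2FC 2.29 and 2.13) and without dual-treated mouse 2 or 5 (log2FC 2.54 and 2.57). *Spi1*, which encodes PU.1, was likewise higher in both, at 2.42 and 2.17 (adjusted p = 1.22e-05 and 0.00045, edgeR). *Cebpd*, *Cebpb* and *Runx1* were called higher in LPS than control and lower in dual-treated than LPS lungs, and *Cebpd* stood at 86.2, 91.6 and 94.7 CPM in control, 1292, 941 and 1067 CPM in LPS and 357 and 176 CPM in dual-treated lungs (adjusted p = 0.00021 for dual treatment against LPS, edgeR). It was also called higher in dual-treated than control lungs (log2FC 1.55, adjusted p = 0.00362, edgeR), except without dual-treated mouse 2 (log2FC 0.93). *Cebpa*, which the lung epithelium also uses, was called lower in LPS than control (log2FC -1.09, adjusted p = 3.55e-05, edgeR). *Gfi1* was called higher in LPS against control (log2FC 1.5, adjusted p = 0.0149, edgeR), which was lost without LPS mouse 1 (log2FC 0.90) and without control mouse 2 (log2FC 1.41). *Myb*, a gene of early precursors, was not called, at 4.70, 5.58 and 4.37 CPM in control, 4.86, 4.27 and 5.14 CPM in LPS and 5.85 and 4.35 CPM in dual-treated lungs. The median log2FC of the list was 1.89, 0.82 and -0.45 for LPS against control, dual treatment against control and dual treatment against LPS.

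The proteases of the members have inhibitors, of which 14 genes were listed and 9 tested. In LPS against control lungs 5 were called higher and 1 lower, in dual treatment against control 4 were called higher, and in dual treatment against LPS 5 were called lower, or 3 with LPS mouse 1 as the only LPS mouse. Of the 4, *A2m*, the gene of a broad plasma protease inhibitor, had 4, 3 and 3 counts in control and 23 and 7 in dual-treated lungs (log2FC 2.05), and its call was lost in 7 settings, without any 1 control mouse, without LPS mouse 1 or 6, with LPS mouse 1 as the only LPS mouse, and without dual-treated mouse 2 (log2FC 0.91). Its log2FC was 2.22, 1.98 and 1.94 without control mouse 1, 2 or 4, and 2.05 in each of the settings that left out LPS mice. Of the 5, *Serpina3n* (log2FC -1.10) was no longer called without dual-treated mouse 5 (log2FC -0.62) and *Pzp* (log2FC -2.15) without mouse 2 (log2FC -1.58), and neither with LPS mouse 1 as the only LPS mouse (log2FC -1.05 and -1.70). *Slpi*, which encodes an inhibitor of elastase and cathepsin G, stood at 71.6, 46.8 and 52.5 CPM in control, 259, 336 and 317 CPM in LPS and 135 and 139 CPM in dual-treated lungs (adjusted p = 2.91e-06 for LPS against control and 0.000626 for dual treatment against LPS, edgeR), and the last call was lost with LPS mouse 1 as the only LPS mouse (log2FC -0.93). *Timp1*, the gene of an inhibitor of metalloproteinases that include gelatinase B, stood at 7.39, 5.63 and 9.52 CPM in control, 349, 292 and 209.9 CPM in LPS and 74.5 and 41.9 CPM in dual-treated lungs (adjusted p = 1.33e-06 and 0.000213 for the same comparisons, edgeR). *Mmp8* and *Mmp9* were inside or above their LPS range in the same dual-treated lungs in which *Timp1* was below it. *Timp2* was called lower in LPS than control, at 496, 501 and 501 CPM in control and 239, 196 and 201 CPM in LPS lungs (adjusted p = 3.1e-05, edgeR). In dual-treated lungs it was above every LPS lung, at 321 and 427 CPM (log2FC 0.82 against LPS, under the fold criterion). *Timp3*, the most abundant of the list by its mean over all libraries, stood at 628, 491 and 448 CPM in control and 1126, 796 and 739 CPM in LPS lungs. Its level was 523 and 592 CPM in dual-treated lungs, and it was not called in any comparison. *Serpinb1a*, an intracellular inhibitor of elastase and cathepsin G, was not called, at 22, 19.4 and 23.4 CPM in control, 19.0, 21.7 and 23.9 CPM in LPS and 30.3 and 34.6 CPM in dual-treated lungs. The 5 genes of alpha-1-antitrypsin, *Serpina1a* to *Serpina1e*, which the liver makes, had at most 2 counts in any library. The median log2FC of the 9 tested genes was 1.70, 0.59 and -1.10 in the same order.

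Genes of dividing cells were listed because neutrophil precursors that make primary and secondary granules still divide, although many other cells do too. Of 8, 7 were called higher in LPS and 8 in dual-treated than control lungs, and 2 (*Top2a* and *Rrm2*) were called higher in dual-treated than LPS lungs. Without dual-treated mouse 2, 5 of the 8 were called higher in dual-treated than control lungs, since the calls of *Ccnb2*, *Birc5* and *Rrm2* were lost (log2FC 1.19, 0.84 and 1.33). Both calls against LPS were lost as well (log2FC 0.75 and 0.57), and that of *Rrm2* also with LPS mouse 1 as the only LPS mouse (log2FC 1.41). *Mki67*, the most abundant, stood at 7.68, 6.66 and 7.26 CPM in control, 40.0, 25.8 and 26.0 CPM in LPS and 57.9 and 29.3 CPM in dual-treated lungs. The summed level was 21.1, 24.9 and 22.9 CPM in control, 94.2, 76.6 and 65.5 CPM in LPS and 157 and 79.8 CPM in dual-treated lungs. Dual-treated mouse 2 was the highest of the 8 mice for this sum, and mouse 5 was inside the LPS range. The median log2FC was 1.64, 2.13 and 0.33 for LPS against control, dual treatment against control and dual treatment against LPS.

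Other leukocytes that could share granule transcripts were read by their markers. Of 8 macrophage genes, 1, *Siglecf*, was called lower in LPS than control, and 6 were called higher in dual-treated than control lungs and 7 higher there than in LPS mice. The call of *Siglecf* in dual treatment against LPS was lost without dual-treated mouse 5 (log2FC 0.46) and with LPS mouse 1 as the only LPS mouse (log2FC 1.12). *C1qb* led the list in both dual-treated lungs and *Mrc1* in every control lung, and the summed level was 261, 167 and 233 CPM in control, 264, 262 and 186 CPM in LPS and 812 and 741 CPM in dual-treated lungs, with no gene at 0. The median log2FC of this list was -0.06, 2.06 and 1.72 for LPS against control, dual treatment against control and dual treatment against LPS. Of 5 monocyte genes, 2 were called higher and 2 lower in LPS than control, 2 higher in dual-treated than control, and 3 higher and 1 lower in dual-treated than LPS lungs, and their summed level, led by *Nr4a1* in every lung but that of dual-treated mouse 2, where *F13a1* was higher, was 104, 87.2 and 95.2 CPM in control, 700.2, 374 and 364 CPM in LPS and 280.0 and 389 CPM in dual-treated lungs. *Nr4a1* itself had 62.3, 46.8 and 51.3 CPM in control, 605, 269 and 298 CPM in LPS and 75.9 and 149 CPM in dual-treated lungs and was the 1 gene called lower in dual-treated than LPS lungs. The summed level of the other 4 genes was 42.0, 40.4 and 43.9 CPM in control, 95.4, 105 and 65.5 CPM in LPS and 204 and 240.0 CPM in dual-treated lungs, so that without *Nr4a1* both dual-treated lungs were above all LPS lungs. Over the 5 genes the median log2FC was 0.48, 1.07 and 2.87 in the same order of comparisons. *Ccr2*, the chemokine receptor gene of inflammatory monocytes, had 21.7, 16.7 and 17.7 CPM in control, 2.31, 2.08 and 1.73 CPM in LPS and 25.1 and 30.5 CPM in dual-treated lungs. *Ly6c2* went the other way in LPS lungs, at 5.77, 6.19 and 8.83 CPM in control and 78.6, 85.9 and 50.9 CPM in LPS. It stood at 80.4 and 79.3 CPM in dual-treated lungs (log2FC 3.37 for LPS against control and 0.15 for dual treatment against LPS). The calls of *Cx3cr1*, lower in LPS than control lungs and higher in dual-treated than LPS lungs (log2FC -3.18 and 3.97), were both lost with LPS mouse 1 as the only LPS mouse (log2FC -2.34 and 3.14), and the second also without dual-treated mouse 5 (log2FC 1.32). The part of these cells in the levels of *Mmp8* and *Mmp9* was not tested.

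Mast cells and basophils make granule proteases of the same family as cathepsin G. Of their 8 marker genes 5 were tested, 1 was called higher and 1, *Cpa3*, lower in LPS than control lungs, 1 was called lower in dual-treated than LPS lungs, and the summed level was 3.28, 7.32 and 4.87 CPM in control, 6.11, 5.26 and 2.79 CPM in LPS and 2.00 and 2.55 CPM in dual-treated lungs. In dual-treated against LPS lungs, *Mcpt4* was also called lower without LPS mouse 1 (log2FC -3.64) and *Cma1* without LPS mouse 7 (log2FC -1.96). *Cpa3*, a mast cell protease gene and the most abundant by its mean over all 8 libraries though in no LPS lung, was no longer called without LPS mouse 6 or 7 (log2FC -1.33 and -1.0), with LPS mouse 1 as the only LPS mouse (log2FC -0.77) or without control mouse 2 or 4 (log2FC -1.36 and -1.03). The gene called higher in LPS than control and lower in dual-treated than LPS lungs was *Mcpt8*, a basophil protease gene, with 2, 0 and 0 counts in control, 55, 15 and 14 in LPS, and 0 and 0 in dual-treated lungs, so that it was highest in the same 3 mice as *Ctsg*. The part of basophils in the level of *Ctsg* was not tested. *Ms4a2*, which defines both cell types, had at most 6 counts in any library. Of 4 eosinophil genes, 2 were tested, and the defining gene *Epx* had 1 count in LPS mouse 1 and 0 in every other library. *Prg2* had 6, 3 and 14 counts in control, 20, 15 and 29 in LPS, and 2 and 2 in dual-treated lungs (adjusted p = 0.019 for LPS against control and 0.00279 for dual treatment against LPS, edgeR), and the first call was lost without control mouse 1 or 2 and without LPS mouse 7 (log2FC 1.62, 1.36 and 1.5) and with LPS mouse 1 as the only LPS mouse (log2FC 1.71). *Il5ra* was called higher in dual-treated than LPS lungs (log2FC 4.87) with 106 counts in dual-treated mouse 2, 1 in mouse 5 and 3, 0 and 1 in LPS mice 1, 6 and 7. This call was lost without dual-treated mouse 2, where the log2FC turned to -0.75. It was also lost without LPS mouse 6 or 7 (log2FC 4.31 and 4.68) and with LPS mouse 1 as the only LPS mouse (log2FC 3.71). Without control mouse 4 the gene did not pass the count filter. *Prg2* led the list in all LPS lungs and *Il5ra* in dual-treated mouse 2, and the summed level of the 4 genes was 0.440, 0.422 and 1.33 CPM in control, 1.42, 1.04 and 1.67 CPM in LPS and 5.08 and 0.176 CPM in dual-treated lungs.

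By a rule, 5 genes outside the members were named for each class as those whose log2 CPM, standardized over the 8 mice, lay at the smallest root mean square distance from the mean profile of the class, among 15604 genes with a mean of at least 1 CPM. Nearest to the primary class were *Stk17b* at a distance of 0.101, *Gm45774* at 0.105, *Gm11738* at 0.107, *Mxd1* at 0.116 and *Smarcd1* at 0.118. *Stk17b*, a kinase gene, stood at 33.6, 28.6 and 26.3 CPM in control, 118, 110 and 91.8 CPM in LPS and 38.7 and 42.3 CPM in dual-treated lungs, with its 3 LPS values above the other 5. The gene *Gm45774* followed the same order, at 0.294, 0.141 and 0 CPM, 23.8, 20.4 and 16.0 CPM and 0.408 and 0.351 CPM in the same groups.

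Nearest to the secondary class were *Ifi44* at 0.119, *Slc39a1* at 0.123, *Snhg15* at 0.123, *A2m* at 0.124 and *Sf3b2* at 0.132. All 5 were higher in dual-treated mouse 2 than in mouse 5, as *Ltf*, *Lcn2* and *Ngp* were, an order that the choice by profile favours. *Ifi44*, an interferon-induced gene, stood at 11.2, 10.5 and 7.63 CPM in control, 109, 85.3 and 74.1 CPM in LPS and 28.9 and 13.6 CPM in dual-treated lungs. Nearest to the tertiary class were *Stfa2l1* at 0.0704, *Rac2* at 0.0880, *Cstdc4* at 0.109, *Fyb1* at 0.11 and *Clec5a* at 0.123. *Rac2*, a GTPase gene of blood cells, stood at 34.0, 25.3 and 27.4 CPM in control, 99.6, 131 and 89.3 CPM in LPS and 115 and 149 CPM in dual-treated lungs. *Stfa2l1* and *Cstdc4* belong to a family of near-identical copies among which reads could be split, so their values are uncertain. The distance describes 8 mice in 3 groups and is no sign of shared function or control.

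Some members lie together in the genome, and their neighbours were looked up after the members' values had been seen. *Prtn3* and *Elane* are adjacent on chromosome 10 of GRCm39, with 3073 bases and no other coding gene between them. The next gene, *Cfd*, which encodes complement factor D, begins 2617 bases after *Elane* and was not called in any comparison, at 43.9, 235 and 57.3 CPM in control, 58.1, 120.1 and 128 CPM in LPS and 345 and 25.4 CPM in dual-treated lungs. *Camp*, *Ngp* and *Ltf* lie within 1195 kb on chromosome 9, with 28 other coding genes between *Camp* and *Ltf*, of which 21 were tested, 2 called higher and 7 lower in LPS than control. *Mcpt8* is the nearest coding gene to *Ctsg* on one side, 14608 bases away on chromosome 14, and *Gzme* on the other side had 0 counts in every library. *Lpo*, the lactoperoxidase gene, lies 2014 bases from *Mpo* and had 0, 0 and 1 counts in control, 1, 14 and 63 in LPS, and 1 and 3 in dual-treated lungs, so that it was highest in LPS mouse 7 while *Mpo* was highest in mouse 1. *Mmp27*, 2910 bases from *Mmp8*, was called higher in dual-treated lungs than control and than LPS lungs, as *Mmp8* was (log2FC 2.15 and 2.39, adjusted p = 0.0235 and 0.00469, edgeR), with at most 26 counts in a library. The first of these calls was lost without control mouse 1 or 2 (log2FC 2.01 and 1.98) and without dual-treated mouse 2 or 5 (log2FC 2.07 and 2.17), and the other with LPS mouse 1 as the only LPS mouse (log2FC 2.23). Of all 18 nearest coding genes outside the members, chosen by position alone, 16 were tested, 6 were called higher and 3 lower in LPS against control, 2 higher and 1 lower in dual treatment against control, and 3 higher and 4 lower in dual treatment against LPS. The lower call against control, of *Slc12a5*, was lost without control mouse 1, 2 or 4 (log2FC -1.21, -1.05 and -1.23) and without dual-treated mouse 2 (log2FC -0.88). The lower call of *Lpo* against LPS was lost without control mouse 4 (log2FC -3.99) and without dual-treated mouse 2 or 5 (log2FC -3.45 and -4.86). Against LPS, *Bbln* was called lower without LPS mouse 7 (log2FC -1.05), and *Slc12a5* had a log2FC of 1.01 without dual-treated mouse 2.

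By annotation, 3 members overlap a gene on the opposite strand, which was also looked up after their values had been seen. *Mpo* spans the noncoding gene *Gm11505*, which had 0 counts in every library, *Prtn3* shares 197 bases at one end with *Plppr3*, and *Mmp8* lies inside the noncoding gene *Gm31751*, which is not among the listed genes. The strand setting of the counting is not given in the sources used here, so reads of these pairs cannot be told apart, and the values of *Mpo*, *Prtn3* and *Mmp8* are uncertain to that extent. *Plppr3* had 234, 269 and 283 counts in control, 128, 124 and 133 in LPS, and 210 and 381 in dual-treated lungs, lowest in the LPS mice, where *Prtn3* was highest.

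Since members of a class shared part of their pattern, the 250 bases upstream of the start of each coding gene's canonical transcript in GENCODE M39, 1 window per gene, were read from GRCm39 and searched on both strands for a pair of short motifs of factors known in granulocytes. TTGCNNAA, a form bound by C/EBP factors, was present in 9.34% of the 21770 coding genes searched and in 6 of the 10 members, which were all 4 secondary and both tertiary genes and none of the 4 primary genes. GAGGAA, the core bound by PU.1 and related ETS factors, was present in 22.9% of all and in 6 members, which were the 4 primary genes, *Ltf* and *Mmp8*. The windows of *Prtn3*, *Lcn2* and *Mmp9* lie inside those genes' own annotated spans, that of *Lcn2* over an exon of the gene, so that other annotated transcripts of these genes start further upstream. A match describes the sequence and is no evidence of binding, and a missing match says that these letters are not in the window. Shown 5′ to 3′ on the strand of the gene are the 110 bases next to the start for 3 primary genes, chosen after the matches were seen, to set *Mpo* and *Elane*, which stood at the control level in the dual treatment, beside *Prtn3*, which stood above it, with matches in capitals.
Mpo: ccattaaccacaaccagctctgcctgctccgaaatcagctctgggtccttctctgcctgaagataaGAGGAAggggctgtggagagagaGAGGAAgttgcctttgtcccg
Elane: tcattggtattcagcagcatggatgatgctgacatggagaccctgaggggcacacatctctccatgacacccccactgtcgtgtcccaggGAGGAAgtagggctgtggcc
Prtn3: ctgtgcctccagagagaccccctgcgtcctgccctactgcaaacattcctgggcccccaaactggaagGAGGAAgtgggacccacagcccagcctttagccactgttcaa
The stretches lie at chr11:87684297-87684406 on the plus strand, chr10:79721971-79722080 on the plus strand and chr10:79715338-79715447 on the plus strand. Those of *Mpo* and *Elane* lie outside annotated genes, and that of *Prtn3* lies inside the gene's own annotated span and overlaps no exon. GAGGAA begins 44 and 21 bases before the start in *Mpo*, 20 in *Elane* and 42 in *Prtn3*, and 216 in *Ctsg*.

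The same stretch is shown for *Camp* and *Ngp*, the secondary genes that parted in the dual treatment, and for the tertiary gene *Mmp8*, with TTGCNNAA on either strand in capitals.
Camp: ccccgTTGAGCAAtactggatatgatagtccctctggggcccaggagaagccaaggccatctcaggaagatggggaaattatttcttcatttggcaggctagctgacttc
Ngp: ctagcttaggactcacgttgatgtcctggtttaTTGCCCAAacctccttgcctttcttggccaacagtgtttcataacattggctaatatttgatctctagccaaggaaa
Mmp8: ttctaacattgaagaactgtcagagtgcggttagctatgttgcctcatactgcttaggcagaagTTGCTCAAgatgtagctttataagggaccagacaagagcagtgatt
They lie at chr9:109678686-109678795 on the minus strand, chr9:110248705-110248814 on the plus strand and chr9:7558347-7558456 on the plus strand of GRCm39, the first 2 outside annotated genes and the last over an exon of *Gm31751*. The match begins 105 bases before the start in *Camp*, 77 in *Ngp* and 46 in *Mmp8*, and 54 in *Ltf*, 158 in *Lcn2* and 230 in *Mmp9*. *Camp* and *Ngp* thus both hold the motif, and it does not part the genes that stood at the control level in the dual treatment from those that stood above it.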

How the data were processed

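RNA from 8 mouse lungs was sequenced, and the deposited files hold raw gene counts that the authors made. By the submitters' processing notes, reads were checked with FastQC 0.11.9, trimmed with Trim Galore, aligned to GRCm39 with HISAT2 2.2.1 and counted with featureCounts 2.0.1. The annotation release, the strand setting and the handling of reads with several alignments are not given in the sources used here. GENCODE M39 matched 54749 of 55416 gene identifiers, and the 667 unmatched ones held 0.0533% of all counts.

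Counts of all 8 libraries were fitted in R 4.3.3 with edgeR 4.0.16 (filterByExpr, TMM, quasi-likelihood test, 1 group factor, 5 residual degrees of freedom), p-values were adjusted by the Benjamini-Hochberg method over 18560 genes, and the code was tested on simulated data. The SE of a log2FC is its absolute value divided by the square root of the F statistic of the quasi-likelihood test. CPM per kb uses the GENCODE exon length of each gene. The alternatives were DESeq2 1.42.0, other scalings, filters and call rules, the compared groups alone, leaving out each mouse, and LPS mouse 1 as the only LPS mouse. Members and lists were chosen with earlier results of these data known. Named genes were the members, the genes of the lists and, for each granule class, the 5 genes nearest in profile. The neighbouring and overlapping genes and the printed sequences were chosen after values were seen. Class levels were first computed on CPM and then per kb, which multiplies each class by a constant factor.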

Additional observations from a re-analysis of the deposited data

How the results depend on the processing

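Of the 17 alternatives, 15 refit the counts and gave 441 values of a member's log2FC, of which 429 moved by less than the spread between mice, 12 moved by more, and 0 of the called ones changed sign. Of the calls of members, those of *Prtn3* in dual treatment against control and of *Ctsg* and *Mmp8* in dual treatment against LPS were each lost in 4 alternatives, and *Ngp* in dual treatment against LPS was gained in 1, as given above. *Mpo*, *Elane* and *Ctsg* had under 10 counts in some library, so the filter of at least 10 counts in every library left *Prtn3* alone in the primary class. The class median was then 2.78 for LPS against control, 1.23 for dual treatment against control and -1.55 for dual treatment against LPS, 5 members were called in dual treatment against LPS, and 0 mast cell and basophil, 0 eosinophil and 0 squamous genes were called, since fewer genes were tested. With no fold criterion, 12346, 2997 and 10960 genes were called in LPS against control, dual treatment against control and dual treatment against LPS. With LPS mouse 1 as the only LPS mouse, the secondary median in LPS against control was 4.32, and 1 mast cell and basophil, 1 eosinophil, 3 squamous and 3 muscle genes were called in any comparison. By the study's criterion (fold over 2 and unadjusted p under 0.05), and with no filter, 4 mast cell and basophil genes were called, and 1 eosinophil gene when each pair of groups was fitted alone. Apart from the filter, the cause of these shifts was not tested.

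Leaving out each mouse in turn gave a primary median in LPS against control of 3.15 to 4.0 (highest without control mouse 1), a secondary median in dual treatment against LPS of -3.06 (without dual-treated mouse 2) to -1.62 (without mouse 5), and 752 (without dual-treated mouse 2) to 1831 (without mouse 5) genes called in dual treatment against control. Of the lists, 1 to 3 mast cell and basophil, 1 to 2 eosinophil and 3 to 9 squamous genes were called. Without 1 of the 2 dual-treated mice, the remaining one was taken to vary as the other groups did.

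No paired analysis was possible because the mice of the groups were different animals that share fewer than 2 replicate numbers. With 2 or 3 mice a group and at most 16 counts for *Mpo*, *Elane* and *Ctsg* in any control or dual-treated library, the precision of their levels in those groups is limited.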
